A study of Mus musculus with 12 samples.

Results

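The genes described here are the collagens and a set of secreted matrix, matrix-remodelling and fibroblast genes, followed in the left ventricle of adult mice with and without the ribosomal protein gene *Rpl3l*. Members were taken by name alone: every listed transcript whose gene symbol has the form of a collagen chain, plus *Postn*, *Fn1*, *Dcn*, *Lum*, *Bgn*, *Fbn1*, *Eln*, *Sparc*, *Lox*, *Pdgfra*, *Tcf21*, *Cilp*, *Cilp2*, *Pxdn*, *Mmp2*, *Timp1*, *Timp2* and *Timp3*. This gave 62 of the 21669 transcript names counted, of which 44 were collagens and 18 were other genes. By role they comprised 11 fibrillar collagens, 6 basement membrane collagens, 6 beaded filament collagens, 21 other collagens, 7 glycoproteins or fibre proteins, 3 small leucine-rich proteoglycans, 3 enzymes, 3 metalloproteinase inhibitors and 2 fibroblast markers.

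The wild-type (WT) group and the Rpl3l-/- (KO) group were each profiled by ribosome footprinting (RPF) and by RNA sequencing, with 3 libraries per group and 12 in all. In footprinting, RNase I removes the mRNA outside ribosomes and the protected pieces are sequenced, so a count reports ribosomes on a message, whereas the RNA libraries were made from polyadenylated RNA of undigested lysate. Tissue of every group was lysed in the presence of cycloheximide, which halts elongating ribosomes. The labels give the mice as adult hearts of either genotype and state neither sex, nor how the allele was made, nor whether an RNA and an RPF library of the same number came from the same heart. The series text calls the libraries biological triplicates and says no more about separate animals, so the p-values measure the spread between these libraries.

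Collagens are trimers of chains that fold into a triple helix, which requires a repeat of glycine followed by any pair of residues (Gly-X-Y) and is stabilised by proline and hydroxyproline. Types I and III form the fibrils of the heart wall, type V regulates fibril growth, type IV forms the sheet of basement membranes around myocytes and capillaries, and type VI forms beaded filaments at cell borders. Cardiac fibroblasts are known as the main source of fibrillar collagen, and endothelial and mural cells contribute to basement membrane.

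The repeat that defines the family could be read in the coding exons. All 44 collagens held a run of at least 20 consecutive Gly-X-Y triplets in the GENCODE M21 coding sequence, against 20 of 21328 other names. In addition, 18 of the 44 had at least 5 coding exons of exactly 54 bases, against 1 of 21328 other names. Shown here is a 54-base exon of each of 4 fibrillar collagens, because they carry the Gly-X-Y repeat that marks the family. They are on GRCm38, read 5′ to 3′ on the plus strand, with the proline codons in capitals. They are exon 8 of 51 of *Col1a1* (chr11:94939904-94939957), exon 8 of 52 of *Col1a2* (chr6:4515481-4515534), exon 6 of 51 of *Col3a1* (chr1:45325360-45325413) and exon 15 of 66 of *Col5a1* (chr2:27965251-27965304).
Col1a1: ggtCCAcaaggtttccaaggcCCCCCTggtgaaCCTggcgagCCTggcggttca
Col1a2: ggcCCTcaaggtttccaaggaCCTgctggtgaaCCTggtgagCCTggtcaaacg
Col3a1: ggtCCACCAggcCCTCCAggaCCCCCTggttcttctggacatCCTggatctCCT
Col5a1: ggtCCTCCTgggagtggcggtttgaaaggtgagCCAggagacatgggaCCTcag
Of the 18 codons in each, 5, 4, 8 and 4 encode proline in *Col1a1*, *Col1a2*, *Col3a1* and *Col5a1*. How reads that match several chains were handled is not given in the sources used here, so counts of closely related collagens are uncertain to that extent; reads shared between chains were not measured.

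The libraries held between 6635242 and 8459004 counts in RNA and between 3827862 and 7474602 in RPF. Mitochondrially encoded names took 49.8% to 58.2% of RNA counts and 2.28% to 5.22% of RPF counts, so member totals are given as shares of the nuclear counts. Levels in CPM (counts scaled by library size) are comparable only within an assay. Where CPM of both assays are printed for a gene, their ratio is not the fitted difference, which is relative to all genes. *Rpl3l* itself was at 349 to 428 CPM in RNA WT and 40.8 to 46.4 CPM in RNA KO, and at 193 to 260 CPM in RPF WT and 4.40 to 12.8 CPM in RPF KO, with no overlap of genotypes in either assay. On the first component of RNA, which held 47.9% of the variance, WT library 3 and KO libraries 1 and 3 lay on the side opposite to the other three. On the first component of RPF, with 37.4% of the variance, WT library 1 stood apart at a score of -60.8 against 7.91 to 14.7 in the others. Fibroblast markers outside the members were present: 10 of 10 had enough footprints to be tested, and their summed level was 811 to 1062 CPM in RNA WT, 863 to 1025 in RNA KO, 3201 to 3517 in RPF WT and 3314 to 3996 in RPF KO. Cardiomyocyte markers summed to 46588 to 63979 CPM in RNA.

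Matrix genes took a far larger share of ribosome footprints than of mRNA. In RPF the members held 1.03%, 1.08% and 0.968% of nuclear counts in WT libraries 1 to 3 and 1.00%, 1.12% and 1.15% in KO. In RNA the WT libraries held 0.122%, 0.124% and 0.158%, and the KO libraries 0.154%, 0.135% and 0.184%. Each RPF library thus lay above every RNA library, by 6.13 to 8.70 times for RPF over RNA libraries that carry one number, which is only a name here. The mean share was 0.135% ± 0.020 in RNA WT, 0.158% ± 0.025 in RNA KO, 1.03% ± 0.057 in RPF WT and 1.09% ± 0.080 in RPF KO (SD, n = 3 each). Genotypes overlapped in both assays, and the exact two-sided permutation p was 0.3 in each, where 0.1 is the smallest that 3 against 3 libraries allow. The RNA libraries with the highest shares, WT 3, KO 1 and KO 3, were those on the positive side of the first RNA component. Whether that component had a part in the share was not tested. In whole tissue, fewer cells of a type and less RNA per cell cannot be told apart.

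The make-up of the matrix pool also differed between assays. Collagens took 53.3% to 55.8% of member footprints in WT and 38.2% to 44.7% of member RNA counts. Basement membrane collagens were 15.1% to 17.3% of member footprints in WT but 8.15% to 9.84% of member RNA, without overlap. The inhibitors were the other way round, with 2.00% to 2.38% of member footprints and 7.42% to 11.8% of member RNA, and so did the small proteoglycans, with 18% to 20.0% of footprints and 30.3% to 35.8% of RNA. Fibrillar collagens were 22.9% to 24.8% of member footprints and 20.1% to 24.9% of member RNA, which overlap.

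Of the 62 members, 34 had enough counts to be tested in RNA and 44 in RPF; all 34 were also among the 44. A further 10 were tested in RPF only, and 18, all of them collagens, were tested in neither. Because a member that passed through RPF alone had to be high there, the comparison of assays covers only the 34, and the 10 are given as counts. *Timp3* (chr10:86300372-86349506, plus strand, GRCm38), a matrix-bound metalloproteinase inhibitor, had 637, 448 and 646 footprint counts in WT and 945, 1096 and 602 in KO, with 0, 2 and 4 RNA counts in WT and 2, 1 and 0 in KO. *Lox*, which cross-links collagen and elastin, had 42 to 79 footprint counts and 0 to 2 RNA counts per library. *Col12a1*, a fibril-associated collagen, had 47 to 94 footprint counts and 0 or 1 RNA count. The remaining RPF-only members were *Col4a3*, *Col4a6*, *Col6a5*, *Col6a6*, *Col7a1*, *Col8a2* and *Col11a2*, of which *Col6a6* had the most footprints, 155 to 232 per library against 6 to 11 in RNA. The 18 members tested in neither included the cartilage collagens *Col2a1*, *Col9a1*, *Col9a2*, *Col9a3*, *Col10a1* and *Col11a1*, with at most 13 counts in any library.

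**Figure D1:**
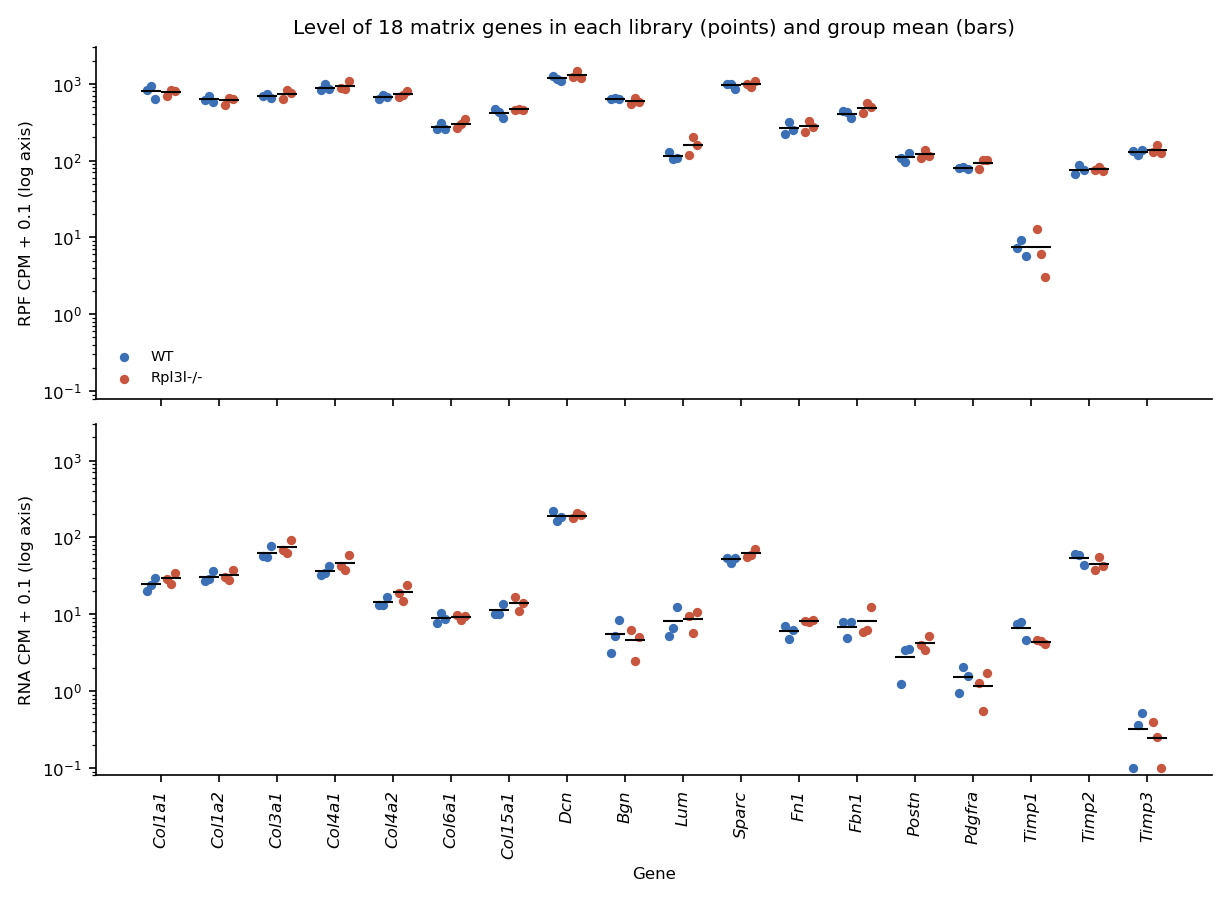
CPM (plus 0.1, log axis) of 18 matrix genes in each RPF library (top) and RNA library (bottom); points are libraries and bars the mean of 3. CPM were scaled within an assay, so heights are comparable within a panel. *Timp3* lies at 118 to 161 CPM in RPF and at or near 0 in RNA, and WT and KO points overlap for most genes.

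Per kilobase of coding sequence, the highest footprint level in WT was that of *Dcn*, which encodes decorin, a proteoglycan that coats collagen fibrils, at 1100 ± 94.5 CPM per kb (SD, n = 3). *Sparc*, a collagen-binding matricellular protein, followed at 1043 ± 86.4, which is within the spread of *Dcn*, and *Bgn* (biglycan) at 572 ± 12.8. *Timp3* came next at 202 ± 15 (SD). Then came *Col1a1* at 182 ± 35, *Col4a1* at 177 ± 17.6, *Col3a1* at 158 ± 10.2 and *Col1a2* at 152 ± 16.1, whose neighbours in this order do not differ beyond their spread, followed by *Col4a2* at 131 ± 9.21. The first 4 places were the same in KO, at 1213, 1088, 534 and 217 CPM per kb. Per kilobase of transcript, the RNA order in WT began with *Dcn* at 107 ± 16.2, *Sparc* at 22.4 ± 1.86, *Timp2* at 14.7 ± 2.69 and *Col3a1* at 11.4 ± 2.13, and *Bgn* stood at 2.25 ± 1.10, in place 11. Because the counted region is not given in the sources used here, levels per length carry that uncertainty.

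The comparison of RPF with RNA within a genotype asks which messages carry more or fewer footprints than their mRNA level would give, relative to all genes tested in both assays. In WT, 29 of the 34 members had higher footprints than RNA at an adjusted p below 0.05 (edgeR quasi-likelihood test, Benjamini-Hochberg over all genes), where 38.3% of all genes did. Another 2 members, *Timp1* and *Timp2*, were lower, where 35.6% of all genes were. The median log2 difference of the 34 was 2.74, beside 0.05 for all genes. In KO, 30 were higher, beside 37.9% of all genes, and 1 was lower, beside 34.7%, with a median of 2.55 beside 0.08. All 29 of the WT genes were among the 30 in KO, and the addition was *Col8a1*. Since most genes differed between assays, the size of the difference is given throughout: the upper quartile in WT was 1.39 over all genes and 3.44 over the members tested.

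**Figure D2:**
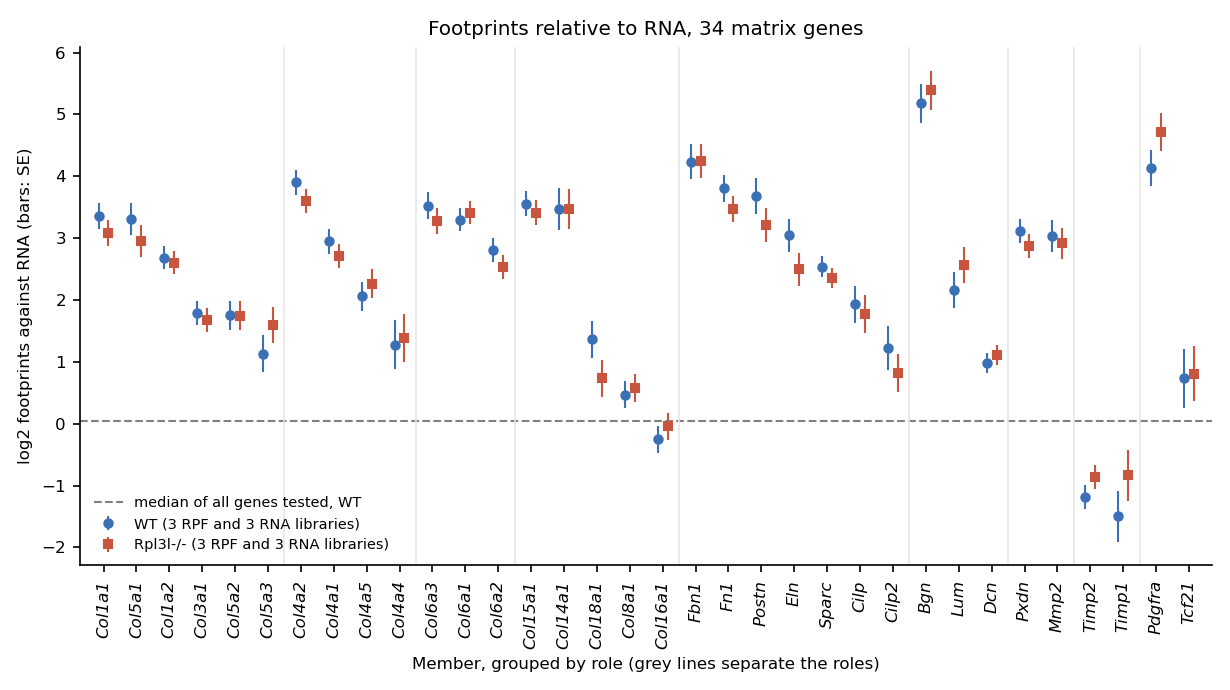
Log2 difference of footprints against RNA (y axis, bars are SE) for the 34 matrix genes tested in both assays, in WT (circles) and KO (squares), ordered by role and then by the WT value; the dashed line is the WT median of all genes tested, 0.05. All but *Col16a1*, *Timp1* and *Timp2* lie above that line in WT.

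Among the fibrillar collagens, 6 of 11 were tested and all 6 were higher in footprints in both genotypes. *Col1a1*, a chain of type I collagen, had 819, 933 and 631 RPF CPM in WT and 687, 819 and 812 in KO, and 20.2, 23.6 and 29.4 RNA CPM in WT and 29.0, 24.4 and 34.4 in KO. Genotypes overlapped in both assays, and the RNA of WT library 1 was the lowest of the 6. The fitted difference of footprints against RNA was 3.36 on the log2 scale in WT (SE 0.21, edgeR adjusted p = 7.6e-10), a 10.3-fold excess relative to all genes. Its partner *Col1a2* had 606, 702 and 574 RPF CPM and 27.4, 28.8 and 36.3 RNA CPM in WT, and a fitted difference of 2.68 (SE 0.18). *Col3a1*, the chain of type III collagen, stood at 645 to 734 RPF CPM and 55.7 to 76.9 RNA CPM in WT, and its difference was smaller, 1.79 (SE 0.19). Within type V, *Col5a1* reached 3.31 (SE 0.26), *Col5a2* 1.75 (SE 0.23) and *Col5a3* 1.13 (SE 0.30), so chains of a single collagen type spanned more than 2 log2 units.

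In the basement membrane class, 4 of 6 were tested and all 4 were higher in footprints. *Col4a1* had 835, 990 and 840 RPF CPM in WT and 883, 848 and 1081 in KO, with 32.1, 34.7 and 42.1 RNA CPM in WT and 42.0, 37.1 and 58.4 in KO. *Col4a2* had 627, 721 and 670 RPF CPM in WT and 13.2, 13.0 and 16.4 RNA CPM. KO library 3 was the highest of its assay for both genes, in RPF and in RNA. The fitted difference was 2.95 for *Col4a1* (SE 0.20) and 3.90 for *Col4a2* (SE 0.20, edgeR adjusted p = 1.1e-10) in WT. These genes encode the common chains of type IV collagen and lie head to head on chromosome 8, on opposite strands, with RefSeq starts 21 bases apart (GRCm38.p6). *Col4a5* and *Col4a4*, chains of the rarer networks, had differences of 2.06 (SE 0.24) and 1.28 (SE 0.40) in WT. The *Col4a4* value rested on 9 to 16 RNA counts per library, and its call was lost without WT replicate 3 (0.70) and, in KO, without KO replicate 1 (1.08).

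All 3 tested type VI chains were higher in footprints: *Col6a1*, *Col6a2* and *Col6a3* had differences of 3.30 (SE 0.18), 2.80 (SE 0.20) and 3.52 (SE 0.22) in WT. *Col6a1* stood at 261 to 308 RPF CPM and 7.60 to 10.3 RNA CPM in WT. Among the other collagens, 3 of 5 tested were higher in WT. *Col15a1*, a basement-membrane-linked collagen, and *Col14a1*, a fibril-associated collagen, reached 3.56 (SE 0.20) and 3.47 (SE 0.34). The RNA of *Col14a1* was sparse, with 11 to 51 counts per library. *Col18a1*, the source of endostatin, was at 1.37 (SE 0.30), *Col8a1*, a network collagen of vessels, at 0.47 (SE 0.22, edgeR adjusted p = 0.065), and *Col16a1*, fibril-associated, at -0.25 (SE 0.22, edgeR adjusted p = 0.32). Some of these calls changed when a replicate was left out, which removed its RNA and its RPF library together. *Col8a1* passed in WT without WT replicate 1 (0.76), and in KO the calls of *Col8a1* and *Col18a1* were both lost without any 1 of the 3 KO replicates, at 0.43 to 0.62 and 0.41 to 0.84.

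All 7 glycoproteins and fibre proteins were higher in footprints in both genotypes. *Fbn1*, the fibrillin of microfibrils, had 435, 427 and 357 RPF CPM and 7.88, 4.81 and 7.75 RNA CPM in WT, a difference of 4.23 (SE 0.28). *Fn1*, which encodes fibronectin, was at 3.81 (SE 0.21), *Postn*, which encodes periostin of activated fibroblasts, at 3.68 (SE 0.28), and *Eln*, which encodes elastin, at 3.04 (SE 0.27). The RNA behind *Postn* was sparse, with 8 to 51 counts per library. *Sparc* was at 2.54 (SE 0.16), *Cilp* at 1.93 (SE 0.30) and *Cilp2* at 1.23 (SE 0.36), the last 2 being secreted proteins first described in cartilage. The *Cilp2* call was lost in WT without WT replicate 1, at a difference of 0.73, and in KO without any 1 of the 3 KO replicates, at 0.59 to 0.95.

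All 3 proteoglycans, which are built alike, were higher in footprints, with differences from 0.98 (*Dcn*) to 5.18 (*Bgn*). *Bgn* (chrX:73483602-73495933, plus strand, GRCm38) had 623, 651 and 631 RPF CPM in WT and 546, 650 and 582 in KO. In RNA it had 3.01, 5.07 and 8.28 CPM in WT and 6.20, 2.4 and 4.96 in KO. Its RNA was thus spread over a wide range in both genotypes, from 16 to 79 counts per library, while its footprints were not. The difference was 5.18 in WT (SE 0.31, edgeR adjusted p = 5.8e-10), higher than in 99.6% of all genes. *Dcn*, with 1076 to 1277 RPF CPM and 161 to 218 RNA CPM in WT, was at 0.98 (SE 0.17), and *Lum*, which encodes lumican, was at 2.16 (SE 0.29).

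Of the enzymes, *Pxdn*, a peroxidase that cross-links type IV collagen, was at 3.12 (SE 0.20) and *Mmp2*, a gelatinase, at 3.03 (SE 0.26). The tested inhibitors went the other way. *Timp2* (chr11:118301069-118355506, minus strand) had 66.0, 86.4 and 74.9 RPF CPM and 61.2, 59.4 and 43.1 RNA CPM in WT, and its footprints were lower than its RNA by 1.19 on the log2 scale relative to all genes, a log2 difference of -1.19 (SE 0.19, edgeR adjusted p = 3.8e-05). *Timp1* had 27 to 35 footprint counts and 43 to 61 RNA counts per WT library, and a difference of -1.5 (SE 0.41, edgeR adjusted p = 0.0039). In KO the *Timp1* value was -0.83 (edgeR adjusted p = 0.082), and without KO replicate 1, whose 96 footprint counts were the most, it was -1.52 and passed. With the replicate block, which joins the equally numbered RNA and RPF library of a genotype, it was -1.03 and passed (edgeR adjusted p = 0.019), so that 2 members rather than 1 were lower in KO. The fibroblast markers also parted: *Pdgfra*, a growth factor receptor, was at 4.13 (SE 0.29) from 6 to 15 RNA counts per WT library, and *Tcf21*, a transcription factor of the fibroblast lineage, was at 0.73 (SE 0.47, edgeR adjusted p = 0.17).

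Ratios of partner chains do not depend on the scaling of a library. Per kilobase, *Col1a1* and *Col1a2* stood at 1.28, 1.26 and 1.04 to 1 in WT footprints, with a KO mean of 1.2 ± 0.019 (SD, n = 3), whereas the RNA ratio was 0.666, 0.739 and 0.732 for WT libraries and 0.85, 0.786 and 0.831 for KO libraries. The lowest RPF ratio of this pair was above its highest RNA ratio. The same was true of *Col5a1* to *Col5a2*, with a mean ratio of 1.45 ± 0.34 in WT footprints and 0.479 ± 0.14 in WT RNA (SD, n = 3). *Col4a1* to *Col4a2* went the other way, at 1.35 ± 0.062 in WT footprints and 2.49 ± 0.11 in WT RNA. *Col6a1* to *Col6a2* was 1.08 ± 0.099 in WT footprints, and *Col6a3* to *Col6a1* was 0.257 ± 0.048 in WT footprints and 0.261 ± 0.041 in WT RNA. Between genotypes, *Col1a1* to *Col1a2* in RNA was higher in all 3 KO libraries. *Col6a1* to *Col6a2* in RNA was lower in all 3, at 0.564, 0.570 and 0.509 beside 0.630, 1.07 and 0.584 in WT, where library 2 stood apart. Each had an exact two-sided permutation p of 0.1, the smallest possible, and 0.7 after Benjamini-Hochberg adjustment over 14 such comparisons. In footprints the means of these 2 pairs differed between genotypes by 0.012 and -0.030.

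**Figure D3:**
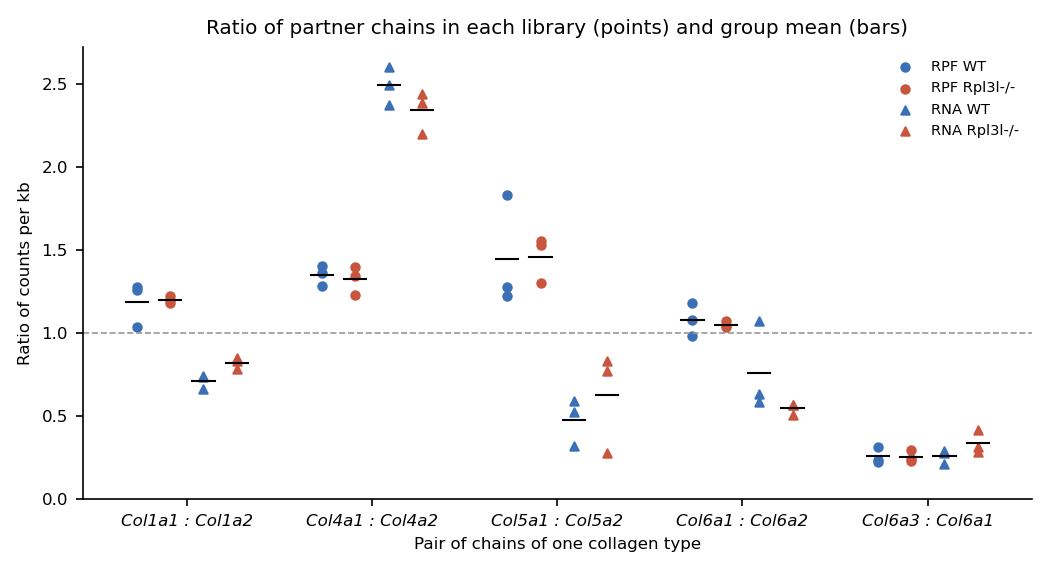
Ratio of counts per kilobase (y axis) of partner chains in each library, for RPF (circles, per coding kb) and RNA (triangles, per transcript kb), in WT and KO; bars are means of 3 libraries. *Col1a1* to *Col1a2* lies above 1 in all 6 RPF libraries and below 1 in all 6 RNA libraries.

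Features of the messages that the naming rule did not use were set beside these values as descriptions. Across 7981 genes with a known structure, the WT difference of footprints against RNA went with the length of the 3′ UTR (Spearman 0.38 across genes, which are not independent replicates). Among the 34 members the coefficient was 0.21, and among the 18 collagens -0.073. Members lay above the median of genes with 3′ UTRs of similar length in each of 5 length ranges: at a median of 1.37 beside -1.15 up to 300 bases (5 members), 1.11 beside -0.09 up to 600 (4 members), 3.41 beside 0.71 up to 1000 (12 members), 2.95 beside 0.90 up to 2000 (7 members) and 2.20 beside 0.79 above that (6 members). Each range holds few members. Whether the region counted had a part in these differences was not tested.

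**Figure D4:**
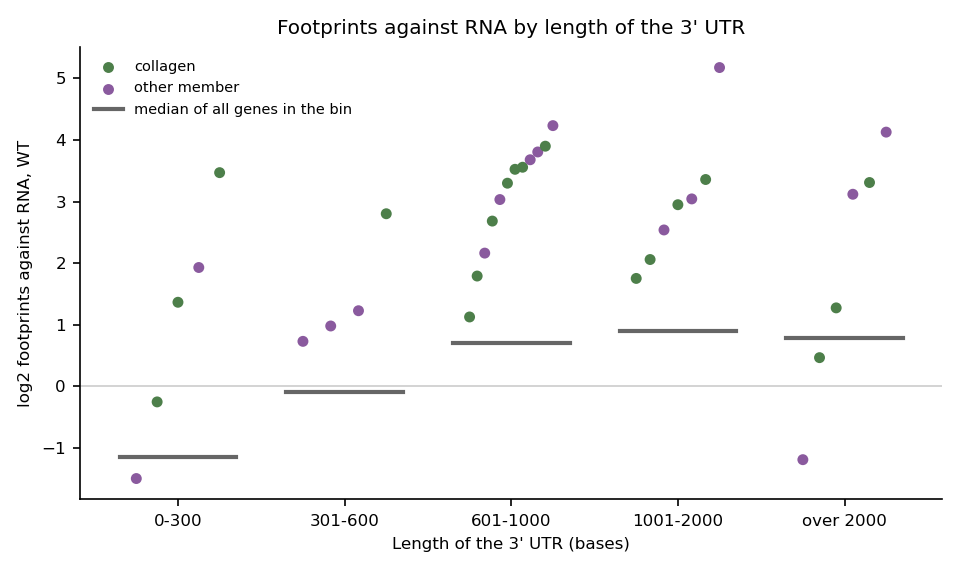
WT log2 difference of footprints against RNA (y axis) of each of the 34 members (points), by length of the 3′ UTR in bases (x axis); grey bars are the median of all genes in the range. In the range from above 600 to 1000 bases all 12 members lie above the grey bar at 0.71.

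Proline took a median of 16.2% of codons in the 44 collagens and 5.24% in all names, and 35 of the 44 were above 11.2%, the 95th percentile of all names. Across the 18 tested collagens the footprint difference tended to be smaller where the proline share was larger (Spearman -0.48), while across all genes the coefficient was 0.067. The low-proline end held *Col6a3* (7.84%, difference 3.52), *Col6a1* (8.0%, 3.30) and *Col14a1* (8.42%, 3.47). The high end held *Col4a4* (20.9%, 1.28), *Col8a1* (22.7%, 0.47) and *Col4a5* (23.5%, 2.06). *Col1a1* went the other way, with much proline and a large difference (19.0%, 3.36). So did *Col4a1* (19.3%) and *Col5a1* (17.9%), whose differences are given above. Of the message features examined, proline share had the coefficient farthest from 0 in the collagens. The 18 share libraries, a repeat structure and in part their base composition, and the coefficient is a description.

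Genes that act with the matrix were compared from lists of their known roles, each given whole, and are to be read beside 38.3% of all genes higher in footprints and 35.6% lower. In WT, 12 of 23 tested genes of collagen maturation were higher in footprints and 4 lower, with a median of 0.50. The lysyl and prolyl hydroxylases *Plod1* and *P4ha1*, at 3.46 and 2.94, and the collagen chaperone *Serpinh1*, at 3.25, were among the higher, and the cyclophilin *Ppib*, at -1.29, was among the lower. Of the collagen receptors, all 4 tested (*Itga1*, *Itgb1*, *Mrc2* and *Ddr1*) were higher, with a median of 3.43. Basement membrane partners were split, with 5 of 11 higher and 1 lower. *Lamc1* and the perlecan gene *Hspg2*, at 3.78 and 3.28, contrast with *Lama4* and *Lamb2*, at -0.12 and 0.07. In TGF-beta signalling 8 of 12 were higher and 1 lower, and of the other proteases and inhibitors 5 of 7 were higher and 1, *Timp4*, lower at -1.06.

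The marker lists are to be read beside the same shares over all genes, 38.3% higher and 35.6% lower in WT. In WT, 4 of 7 other fibroblast markers were higher and 1 lower (median 1.34), as were 5 of 6 and 1 for pericytes (3.97), 6 of 8 and 1 for endothelium (1.99), 6 of 9 and 2 for macrophages (1.80), and 3 of 4 and 0 for smooth muscle (1.05). Cardiomyocyte markers had 4 of 9 higher and 4 lower (0.36). Atrial markers had 0 of 4 higher and 3 lower. Of the remaining cell types, 0 of 1 mesothelial, 1 of 2 valve and 0 of 3 adipocyte markers tested were higher and 1 adipocyte marker was lower, and no Schwann marker had enough RNA counts. The differences between these lists were not tested.

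Loss of *Rpl3l* was not accompanied by a called change in any matrix gene. In RNA, 0 of 34 members passed an adjusted p of 0.05 in edgeR, where 0.0119% of all genes did, and 0 passed in DESeq2, where 0.0119% did. At an unadjusted p below 0.05 in edgeR there were 4 members, beside 2.54% of all genes. In RPF, 0 of 44 passed in edgeR (background 0.00897%) and 0 in DESeq2 (background 0.0448%), and 6 had an unadjusted p below 0.05, beside 5.96%. In the test of translational efficiency, which asks whether the footprint difference itself changed with genotype, 0 of 34 passed in edgeR (background 0.0%) and 0 in DESeq2 (background 0.0124%), and 0 had an unadjusted p below 0.05 in edgeR, beside 3.73% of all genes. The members' adjusted p-values in edgeR were 0.999 in RNA and 0.833 to 0.998 in RPF. DESeq2 gave an adjusted p for 41 of the 44 RPF members, with 0.384 the lowest.

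The members leaned upward in KO RNA without any single call. Of the 34, 27 had a positive KO-against-WT log2 fold change, with a median of 0.25, beside 49.1% of all genes and a median of -0.01. Collagens did so in 16 of 18. This median rested largely on KO library 3: without it the value was 0.037, and leaving out any other library gave 0.17 to 0.32. That library also had the highest member share of the RNA libraries. Within the sides of the first RNA component, the median difference of mean log2 CPM was 0.17 (1 WT and 2 KO libraries) and 0.095 (2 WT and 1 KO). That component came from the same RNA values and each side has 1 library of a genotype, so nothing is read from these medians. In RPF, 29 of 44 were positive, with a median of 0.10, beside 50.2% of all genes and a median of 0.001. The 29 include *Col8a2*, which was tested only through its KO counts. The median for translational efficiency was -0.10, beside 0.01. The summed RNA of the atrial markers was 1681 to 2615 CPM in WT and 2053 to 4136 in KO, which overlap. All 4 atrial markers tested had positive RNA fold changes, and 3 had an unadjusted p below 0.05 in edgeR, beside 2.54% of all genes. None of the 4, with a median of 0.63, passed after adjustment. Positive RNA fold changes were also found in 7 of 8 endothelial (median 0.28), 4 of 6 pericyte (0.19) and 2 of 2 valve markers (0.22). Of smooth muscle, other fibroblast and macrophage markers, 2 of 4 (-0.01), 3 of 7 (-0.01) and 4 of 9 (-0.04) were positive. Of cardiomyocyte, adipocyte and mesothelial markers, 1 of 9 (-0.16), 0 of 3 (-0.43) and 0 of 1 (-0.55) were positive. The part of tissue make-up in the members' values was not tested.

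**Figure D5:**
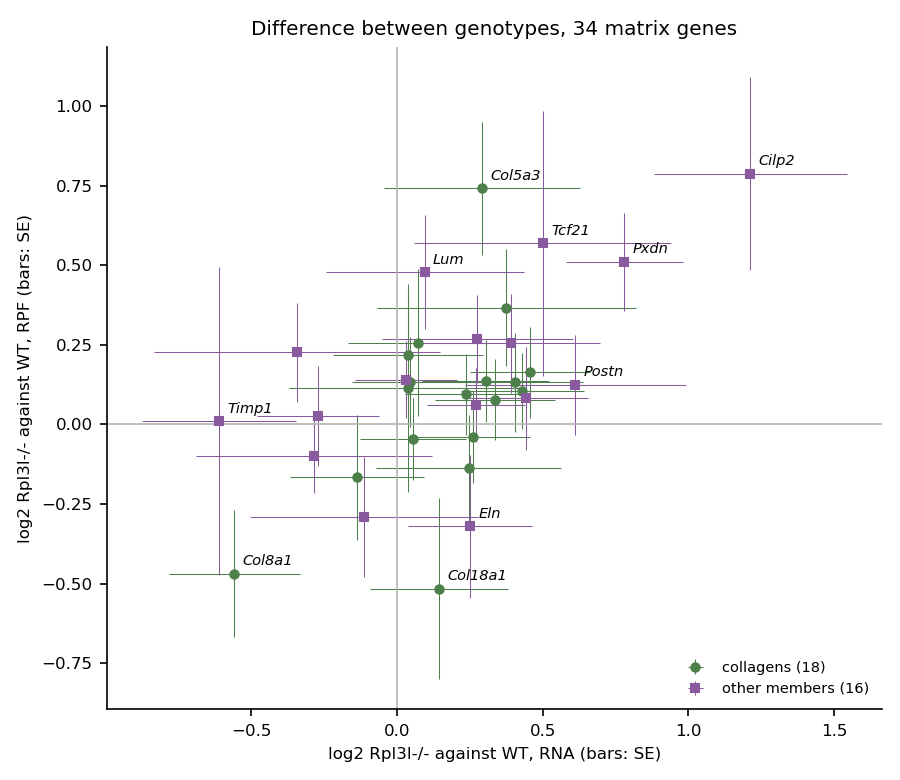
KO-against-WT log2 fold change in RNA (x axis) and in RPF (y axis) of the 34 members tested in both, with SE bars; circles are collagens and squares other members. No point passed an adjusted p of 0.05 in either assay. *Pxdn* and *Cilp2* are positive in both and *Col8a1* negative in both.

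None of the following differences passed the adjusted test; they are given as values. *Pxdn* (chr12:29938036-30017658, plus strand) had 167, 176 and 148 RPF CPM in WT and 187, 241 and 273 in KO, and 7.02, 5.45 and 5.45 RNA CPM in WT and 10.0, 9.44 and 11.1 in KO, so the genotypes did not overlap in either assay. Its log2 fold change was 0.78 in RNA (SE 0.20, edgeR adjusted p = 0.999) and 0.51 in RPF (SE 0.15, edgeR adjusted p = 0.834). *Cilp2* had 14.0, 12.6 and 7.19 RPF CPM in WT and 15.9, 24.2 and 18.2 in KO, and its RNA was 0.86 to 1.95 CPM in WT and 3.34 to 3.69 in KO, again without overlap, with log2 fold changes of 1.21 in RNA (SE 0.33) and 0.79 in RPF (SE 0.30). *Col8a1* had negative values in both, -0.56 in RNA (SE 0.23) and -0.47 in RPF (SE 0.20), and only its RNA genotypes did not overlap. *Timp1* RNA was at -0.61 (SE 0.26), with 4.51 to 7.92 CPM in WT and 3.95 to 4.58 in KO, which overlap.

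Footprints of *Col5a3*, a minor chain of type V, were 41.1, 33.7 and 29.8 CPM in WT and 48.9, 51.2 and 75.7 in KO, without overlap, with a log2 fold change of 0.74 (SE 0.21, edgeR adjusted p = 0.833). *Col7a1*, the anchoring fibril collagen, had 20.4, 8.96 and 6.77 RPF CPM in WT and 4.31, 4.55 and 3.98 in KO, a log2 fold change of -1.49 (SE 0.44). WT library 1, which stood apart on the first RPF component, held the highest of these values, and without it the fold change was -0.86. *Lum* footprints were at 0.48 (SE 0.18), with overlap. *Col8a2* had 1 to 6 footprint counts in WT and 16 to 19 in KO, and a log2 fold change of 1.61 (SE 0.79). It had 10 counts or more in KO libraries alone, so it passed the count filter only through the group where it is high, and nothing is read from its difference.

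Counted over libraries, every KO library was above every WT library for 4 of 34 members in RNA (*Cilp2*, *Fn1*, *Pxdn* and *Sparc*), beside 4.14% of all genes, and below for 1 (*Col8a1*), beside 3.19%. In RPF this held for 5 of 44 above (*Cilp2*, *Col16a1*, *Col5a3*, *Pxdn* and *Col8a2*, the last tested only through its KO counts), beside 6.27%, and for 3 below (*Cilp*, *Col6a6* and *Col7a1*), beside 5.77%. In translational efficiency the values farthest from 0 were those of *Timp1* (0.66, SE 0.58), *Col18a1* (-0.63, SE 0.43), *Pdgfra* (0.59, SE 0.45), *Eln* (-0.55, SE 0.36) and *Col5a3* (0.47, SE 0.42), each within 2 standard errors of 0. None of the lists of partner genes and cell types had a gene past an adjusted p of 0.05 in edgeR between genotypes. At an unadjusted p below 0.05 in RPF, which 5.96% of all genes had, there were 3 of 28 in collagen maturation, 4 of 14 in basement membrane partners, 1 of 22 in TGF-beta signalling, 3 of 13 in other proteases and 1 of 6 in collagen receptors. Among cell types there were 3 of 5 atrial, 2 of 9 cardiomyocyte and 1 of 5 smooth muscle markers, and none in the other marker lists.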

How the data were processed

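The authors deposited, for each of the 12 libraries, raw counts listed by transcript name. Per the submitters' processing notes, cutadapt 1.18 and Bowtie2 2.4.2 were used. Build, counted region, strandedness and treatment of multiply matching reads are not given in the sources used here, so counts of paralogs and of overlapping or antisense genes are uncertain. Genotype, assay and number came from the labels.

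Members and gene lists were chosen with earlier results of these data known. Names were matched to GENCODE M21 (GRCm38), which gave a coding sequence for 21390 of 21669 names and for all 62 members; gene starts are from RefSeq GRCm38.p6. Tests used edgeR 4.0.16 in R 4.3.3: filterByExpr (minimum count 10), TMM factors, glmQLFit and glmQLFTest, with Benjamini-Hochberg adjustment over all genes and a threshold of 0.05. RNA and RPF were each fitted on 6 libraries by genotype; translational efficiency (interaction) and RPF against RNA within a genotype came from all 12. The SE of a log2 value was taken as its absolute size divided by the square root of the quasi-likelihood F, so it restates that test. CPM used TMM-scaled totals within an assay. Shares and chain ratios were compared between genotypes by an exact permutation test, two-sided. The fits were also run on simulated counts with a fixed spread, where changes were set only in genes above a minimum mean count in both assays. That run does not cover the members with the sparsest RNA.

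Named, whatever their depth, were the 4 members with the highest RNA CPM in each role, any with a genotype call, the 5 with the largest genotype difference in RNA, RPF and efficiency, and the 5 highest and 5 lowest in RPF against RNA in WT; any other member averaging 50 counts or more in both assays could be named too. *Col5a1*, *Col14a1*, *Cilp*, *Col12a1* partner-list genes and members given only in counts were named after their values were seen. Alternatives were median-of-ratios factors, DESeq2 1.42.0, no filter, only genes averaging 50 counts or more, mitochondrial names left out and a replicate block. Each library was also left out in turn, in fits over both assays together with the equally numbered library of the other assay. A term for the side of the first RNA component was chosen after seeing the data.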

Additional observations from a re-analysis of the deposited data

How the results depend on the processing

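Between genotypes, 0 members were called under every alternative run in RNA, RPF and translational efficiency. The median RNA fold change of the members lay between 0.037 and 0.32 on the log2 scale with each library left out, and was 0.14 with the term for the side of the first RNA component.

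For RPF against RNA, with a mean of at least 50 counts, which left 20 members, 18 were higher in WT and 18 in KO, 1 was lower in WT and 0 in KO, and the medians were 3.42 and 3.09; with no filter the medians were 2.21 and 2.07. Members lower in KO numbered 1, and 2 under DESeq2, 3 with no filter, 2 with the replicate block and 1 to 2 with a replicate pair left out; *Timp1* was the addition under DESeq2 and the block. *Col16a1*, not called, changed sign: 0.30 in WT and 0.46 in KO with a mean of at least 50 counts, and -0.23 to 0.0044 in KO with a replicate pair left out. Calls of *Cilp2*, *Col4a4*, *Col18a1* and *Col8a1* were lost under some alternatives. The KO call of *Timp2*, the member lower in KO in the main fit, was lost with a mean of at least 50 counts. The causes were not tested.

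Deviations of same-numbered WT and KO libraries correlated at -0.20, 0.36 and 0.41 (RNA) and 0.0041 to 0.062 (RPF), so these numbers were not taken as pairs. For RNA and RPF libraries of the same number it was 0.076 to 0.15 in WT and 0.11 to 0.12 in KO: above 0.1 in every KO pair but not in every WT pair, and the fit without the block was kept. With the replicate block, 29 members were higher in WT and 30 in KO, the median RNA fold change was 0.23, and 0 genotype calls were made. Depth limits the RNA side: 20 of 62 members had a mean of at least 50 RNA counts, against 37 in RPF.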
